A study of Mus musculus with 15 samples.

Results

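The glycoprotein hormone subunit genes Lhb, Fshb, Cga and Tshb were followed through whole pituitary glands of mice that lacked the pituitary enhancer (PE) of Nr5a1 on 1 or both alleles. The members were chosen by their symbols, and each symbol was held by 1 row, so that 4 of the 55523 rows of the count table are described here. Nr5a1 encodes a nuclear receptor made in the gonadotrope, the pituitary cell that secretes LH and FSH. Heterozygous mice (PE+/−) served as controls and homozygous mice (PE−/−) carried the deletion on both alleles, so every group carried at least 1 deleted allele. The deletion was made in fertilized eggs with Cas9, and it was therefore present in all tissues and not in the pituitary alone. There were 4 PE+/− males, 4 PE−/− males, 4 PE+/− females and 3 PE−/− females, each with 1 RNA-seq library. The strain, the age and, for females, the estrous stage of these mice are not given in the sources used here. The series counts as many mice as libraries, but its labels do not tie each library to a separate mouse, so the p-values measure the spread between these 15 samples.

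Each of the 3 pituitary glycoprotein hormones is a pair of subunits. The α subunit, encoded by Cga, is shared, and the β subunit gives the hormone its identity, with Lhb for luteinizing hormone, Fshb for follicle-stimulating hormone and Tshb for thyroid-stimulating hormone. Gonadotropes make Cga with Lhb and Fshb and depend on GnRH from the hypothalamus, whereas thyrotropes make Cga with Tshb and depend on TRH and on feedback by thyroid hormone. In a whole gland, fewer cells of a type and less RNA per cell cannot be told apart, and the Cga signal is the sum of both cell types.

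The genes lie on 4 chromosomes. By GENCODE M21 on mm10, Lhb is at chr7:45420820-45421897 on the plus strand, Fshb at chr2:107056140-107059656 on the minus strand, Cga at chr4:34893779-34907370 on the plus strand and Tshb at chr3:102775465-102782718 on the minus strand. Their principal transcripts, used below for values per kilobase, have 3, 3, 4 and 5 exons and lengths of 678, 1600, 687 and 605 bases. Lhb overlaps the end of Ruvbl2 on the other strand, Cga overlaps Platr9 and Tshb lies within Tspan2. Whether the counting used strand is not given in the sources used here, so reads in these overlaps are uncertain, and the partners had 23 to 132, 355 to 2889 and 1843 to 3984 estimated counts per library.

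The upstream sequence of each member is shown because the deleted enhancer serves the gene of NR5A1, a factor that binds DNA at known letters. The 250 bases before each RefSeq start site (GRCm38.p6, which has the mm10 coordinates) are printed 5′ to 3′ on the strand of the gene. They span chr7:45420696-45420945 for Lhb, chr2:107059652-107059901 for Fshb, chr4:34893529-34893778 for Cga and chr3:102782715-102782964 for Tshb, and the RefSeq start of Lhb lies inside the gene as GENCODE draws it. Capitals mark matches on either strand to the motifs searched.
Lhb: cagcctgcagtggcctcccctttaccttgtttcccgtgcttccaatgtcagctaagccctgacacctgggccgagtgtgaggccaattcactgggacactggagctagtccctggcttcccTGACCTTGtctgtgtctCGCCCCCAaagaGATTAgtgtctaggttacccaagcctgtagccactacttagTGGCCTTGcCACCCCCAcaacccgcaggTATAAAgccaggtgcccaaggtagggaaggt
Fshb: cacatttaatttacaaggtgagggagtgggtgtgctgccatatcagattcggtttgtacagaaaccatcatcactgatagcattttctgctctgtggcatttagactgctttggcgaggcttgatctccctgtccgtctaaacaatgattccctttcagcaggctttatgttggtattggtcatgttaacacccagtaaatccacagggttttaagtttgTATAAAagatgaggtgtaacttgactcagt
Cga: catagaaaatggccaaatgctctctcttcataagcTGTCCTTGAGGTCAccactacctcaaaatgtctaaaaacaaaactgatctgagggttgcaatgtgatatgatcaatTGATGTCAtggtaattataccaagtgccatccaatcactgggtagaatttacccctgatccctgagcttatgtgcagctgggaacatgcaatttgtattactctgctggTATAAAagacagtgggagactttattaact
Tshb: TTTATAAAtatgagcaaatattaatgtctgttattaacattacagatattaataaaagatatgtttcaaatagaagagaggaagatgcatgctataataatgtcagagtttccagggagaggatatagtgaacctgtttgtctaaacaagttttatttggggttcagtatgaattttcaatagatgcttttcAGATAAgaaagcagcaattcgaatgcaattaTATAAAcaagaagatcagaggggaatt

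The letters searched were CAAGGNCA for NR5A1, CNCCCCCA for EGR1, TAATC for PITX1, TGANGTCA for a site like the cAMP response element, AGATAA for GATA factors and TATAAA for the TATA box, each on both strands. Lhb held 2 NR5A1 matches, at -129 to -122 and at -59 to -52 from the start site, each upstream of an EGR1 match, at -112 to -105 and at -50 to -43, with a PITX1 match between them at -100 to -96. Cga held 1 NR5A1 match at -215 to -208, which overlaps a match like the cAMP response element at -209 to -202, and another of the latter at -139 to -132. Fshb matched only the TATA letters in this window, at -30 to -25, and Tshb matched GATA at -58 to -53 and TATA at -27 to -22 and, on both strands, at its far end. TATA letters also stood at -31 to -26 in Lhb and at -30 to -25 in Cga. Of 32851 RefSeq promoter windows of this length, 5.53% held the NR5A1 letters, 12.8% EGR1, 19.8% PITX1, 7.49% the letters like the cAMP response element, 9.99% GATA and 12.4% TATA. A match is a description of letters and not a bound site.

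Library totals ran from 12982794 to 30238443 estimated counts, and levels are given as CPM, the estimated counts of a gene relative to the library size after TMM scaling. The deletion was visible at Nr5a1 itself, at 50.2 ± 20.5 CPM in PE+/− males against 0.347 ± 0.304 in PE−/− males (SD, n = 4 each) and at 38.7 ± 5.13 (n = 4) against 0.724 ± 0.151 (n = 3) in females. Some libraries stood apart in the subunit genes. PE−/− male replicate 4 was the lowest PE−/− male for all 4 members, PE+/− female replicate 4 was high for Fshb, PE+/− male replicate 2 was low for Tshb and PE−/− female replicate 1 was low for Cga. Values without these libraries are given where they move a result.

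**Figure D1:**
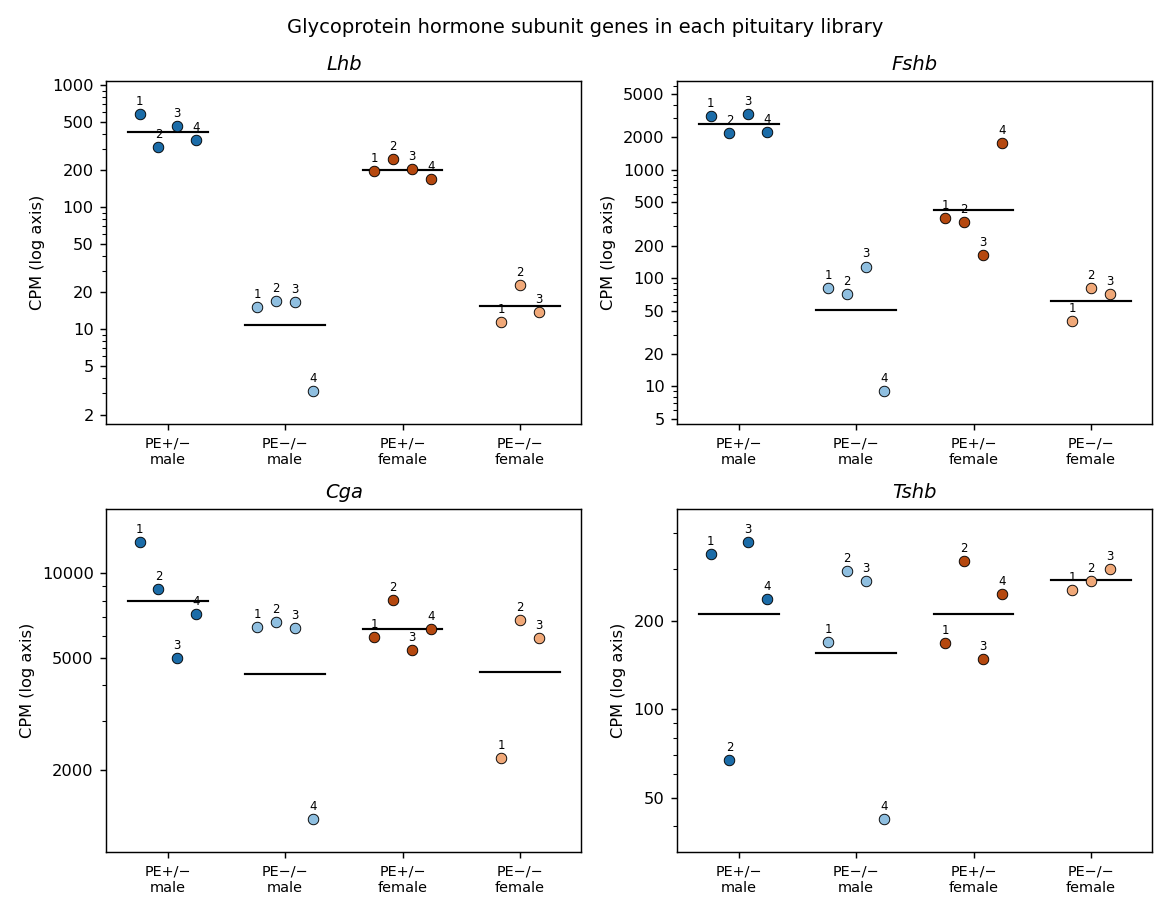
CPM of Lhb, Fshb, Cga and Tshb in each of 15 pituitary libraries (log axis), by group; numbers are replicates and bars are geometric means. Lhb and Fshb of both PE−/− groups lie below every control of the same sex, whereas Cga and Tshb overlap between groups; PE−/− male replicate 4 is lowest in every panel.

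In males, Lhb fell to a few percent of its control level, Fshb stood as low but just missed the edgeR threshold, and Cga and Tshb overlapped with the controls. Lhb, the β subunit of LH, stood at 577, 309.6, 462 and 353 CPM in PE+/− males 1 to 4 and at 15.2, 17.2, 16.6 and 3.13 CPM in PE−/− males 1 to 4. The highest PE−/− male was 18.0-fold below the lowest control. The means were 425 ± 119.7 and 13.04 ± 6.65 CPM (SD, n = 4 each), or 3.06% of the control level, with a log2 fold change of −5.03 (SE 0.55, 95% interval −6.28 to −3.77, edgeR adjusted p = 0.0132). Without PE−/− male replicate 4 the level was 3.84% of control and the log2 fold change was −4.70 (edgeR adjusted p = 0.00256). The adjusted p lost the threshold of 0.05 when PE+/− male replicate 4 (0.0552) or PE−/− male replicate 1 (0.0777), 2 (0.0647) or 3 (0.0598) was left out, with log2 fold changes from −5.19 to −5.11.

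Fshb, the β subunit of FSH, stood at 3129, 2201, 3260.3 and 2230.3 CPM in PE+/− males 1 to 4 and at 80.8, 72.1, 128 and 9.11 CPM in PE−/− males 1 to 4. These groups did not overlap either, and the gap between them was 17.2-fold. The mean went from 2705 ± 568.1 to 72.5 ± 48.9 CPM (SD, n = 4 each), 2.68% of control. The log2 fold change of −5.22 was as large as that of Lhb but its standard error was wider (0.72, 95% interval −6.88 to −3.57), and the edgeR adjusted p was 0.0506. Without PE−/− male replicate 4 it was −4.85 with an SE of 0.31 and an edgeR adjusted p of 0.00256. DESeq2 gave Fshb an adjusted p of 4.3e-16 on all 8 male libraries.

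The α subunit Cga, the most abundant of the 4 genes, stood at 12932.5, 8805, 5014 and 7143 CPM in PE+/− males 1 to 4 and at 6439, 6723, 6376 and 1346 CPM in PE−/− males 1 to 4. Of the PE−/− males, 3 lay within the range of the controls and replicate 4 lay below it. The log2 fold change was −0.70 (95% interval −1.82 to 0.42, edgeR adjusted p = 0.97), and without replicate 4 it was −0.38 (−1.07 to 0.31). Tshb, the β subunit of TSH, stood at 338, 67.1, 372 and 237 CPM in the controls and at 169.8, 295, 273 and 42.4 CPM in PE−/− males. The lowest value of each group was far from its others. The log2 fold change was −0.38 (95% interval −1.85 to 1.09, edgeR adjusted p = 0.987) and, without PE−/− male replicate 4, −0.046 (−1.27 to 1.18), at 97.0% of control. Without PE+/− male replicate 2 it was −0.70 (−2.02 to 0.62, edgeR adjusted p = 0.936), and the mean was 61.8% of control in place of 76.9%. The first of these intervals holds changes of more than 2-fold in Tshb in either direction.

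In males, 1 of the 4 members passed the edgeR test, against 0.132% of 17392 genes tested, and 2 of 4 passed with DESeq2, against 0.976% of genes. Groups did not overlap in 2 of 4 members, against 4.56% of genes. The median log2 fold change of the members was −2.86, against 0.0027 over all genes tested.

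In females Lhb fell, Fshb stood below every control but did not pass the edgeR test, and Cga and Tshb overlapped with the controls. Lhb stood at 199, 246, 204 and 172 CPM in PE+/− females 1 to 4 and at 11.4, 23.2 and 13.9 CPM in PE−/− females 1 to 3. The groups were 7.40-fold apart at their nearest libraries. The mean went from 205 ± 30.8 (SD, n = 4) to 16.2 ± 6.21 CPM (n = 3), 7.88% of control, with a log2 fold change of −3.67 (SE 0.30, 95% interval −4.38 to −2.96, edgeR adjusted p = 0.00698), and it passed the test whichever library was left out.

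Fshb stood at 359, 331, 163 and 1754 CPM in PE+/− females 1 to 4, so that replicate 4 held 10.7 times as much as replicate 3. The PE−/− females stood at 40.3, 81.8 and 70.7 CPM, and their highest library was 1.997-fold below the lowest control. The mean level was 9.86% of control with all libraries, 22.6% without PE+/− female replicate 4 and 20.5% between medians. The log2 fold change was −3.34 (SE 0.88, 95% interval −5.41 to −1.28, edgeR adjusted p = 0.125) and −2.17 (SE 0.40) without that library, with an edgeR adjusted p of 0.0926. DESeq2 gave an adjusted p of 0.00029 with all libraries.

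Cga stood at 5926, 8049, 5356 and 6319 CPM in PE+/− females and at 2208, 6832 and 5874 CPM in PE−/− females, where replicates 2 and 3 lay within the range of the controls. The log2 fold change was −0.37 (95% interval −1.23 to 0.49, edgeR adjusted p = 0.701). Without PE−/− female replicate 1 it was −0.015 (−0.48 to 0.45), and the mean was 99.1% of control. Tshb stood at 168.5, 321, 148 and 247 CPM in PE+/− females and at 256, 273 and 300.4 CPM in PE−/− females. All 3 PE−/− females lay above 3 of the 4 controls, but PE+/− female replicate 2 exceeded them all. The log2 fold change of Tshb was 0.31 (95% interval −0.32 to 0.95, edgeR adjusted p = 0.656).

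In females, 1 of the 4 members passed the edgeR test, against 1.05% of 18085 genes tested, and 2 of 4 passed with DESeq2, against 6.05%. Groups did not overlap in 2 of 4 members, against 18.6% of genes. The median log2 fold change of the members was −1.86, against 0.0018 over all genes. Prl, the hormone of lactotropes and the only marker listed for them, also fell in PE−/− females, to 4459 to 5603 CPM against 21965 to 35113 CPM in the controls (−2.58 on the log2 scale, edgeR adjusted p = 0.00698), and its part in these results was not tested. In PE−/− males Prl ran from 4753 to 41223 CPM.

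**Figure D2:**
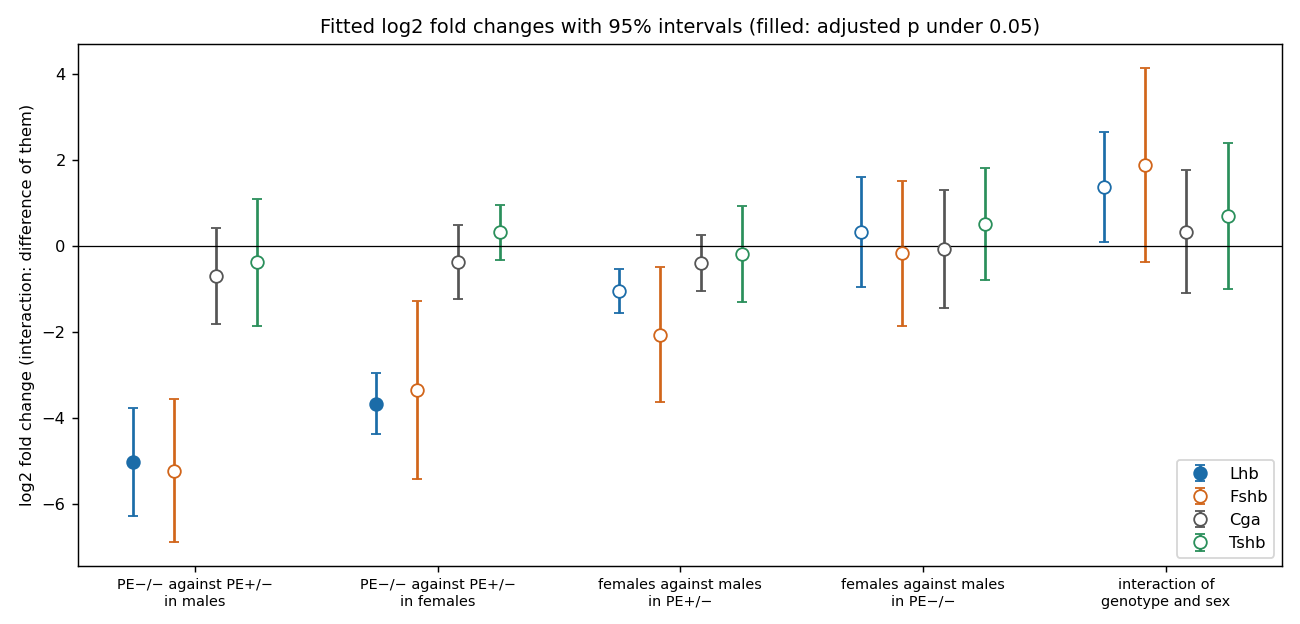
Fitted log2 fold changes of the 4 subunit genes with 95% intervals in 5 comparisons; filled points passed the edgeR test. Lhb in both genotype comparisons is filled; the intervals of Cga and Tshb cross 0 in all 5.

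The difference between the sexes was followed in controls and in PE−/− mice. Among controls, Lhb was 48.2% and Fshb 24.1% of the male level in females, and the sexes did not overlap in either gene. The nearest libraries were 1.26-fold apart for Lhb and 1.25-fold for Fshb, and without PE+/− female replicate 4 the Fshb mean was 10.5% of the male level. The log2 fold changes were −1.05 for Lhb (95% interval −1.56 to −0.54, edgeR adjusted p = 0.0880) and −2.06 for Fshb (−3.62 to −0.50, edgeR adjusted p = 0.238). Without PE+/− female replicate 4, that of Fshb was −3.26 with an edgeR adjusted p of 0.0211. Cga (−0.40, 95% interval −1.06 to 0.26) and Tshb (−0.20, −1.31 to 0.91) overlapped between the sexes, and without PE+/− male replicate 2 that of Tshb was −0.52 (−1.21 to 0.18).

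None of the 4 members passed the edgeR test between PE+/− females and males, against 0.670% of 17163 genes, while 2 of 4 had an unadjusted p under 0.05, against 13.5% of genes, and the same 2, Lhb and Fshb, passed with DESeq2, against 4.00% of genes. Groups did not overlap in 2 of 4, against 9.75%. Their median log2 fold change was −0.73, against −0.010 over all genes. With the females against the males of PE−/−, the log2 fold changes were 0.31 for Lhb (95% interval −0.97 to 1.59), −0.17 for Fshb (−1.86 to 1.51), −0.07 for Cga (−1.44 to 1.30) and 0.50 for Tshb (−0.80 to 1.80). All 4 genes overlapped between the sexes there, against 5.24% of genes that did not overlap. Neither edgeR (0.0494% of genes called) nor DESeq2 (0.154%) called a member, and 0 of 4 had an unadjusted p under 0.05, against 3.37% of genes. Without PE−/− male replicate 4 the log2 fold changes were −0.014, −0.54, −0.39 and 0.17 in the same order. With all libraries the members had a median of 0.12, against −0.0024 over all genes.

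Whether the genotype effect differed between the sexes was tested as the interaction in all 15 libraries. The difference of log2 fold changes, females minus males, was 1.36 for Lhb (95% interval 0.09 to 2.64, edgeR adjusted p = 0.452), 1.88 for Fshb (−0.38 to 4.14, edgeR adjusted p = 0.597), 0.33 for Cga (−1.10 to 1.76) and 0.70 for Tshb (−0.999 to 2.40). No member passed with edgeR (0.161% of 19286 genes called) or with DESeq2 (1.78%), and Lhb alone had an unadjusted p under 0.05, against 10.1% of genes. Without PE+/− female replicate 4 the difference was 3.07 for Fshb (1.21 to 4.92, edgeR adjusted p = 0.218), and without PE−/− male replicate 4 it was 1.04 for Lhb and 1.51 for Fshb. The median over the members was 1.03, against −0.0056 over all genes. These genotype and sex comparisons share libraries and are not independent of each other.

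To compare subunits with each other, CPM was divided by the length of the principal transcript. The RefSeq start of Lhb lies inside the GENCODE gene. A shorter length would raise Lhb on this scale and could change its rank beside Tshb. On this scale Cga led in every group, at 12334 ± 4881 CPM per kilobase in PE+/− males, 7600 ± 3767 in PE−/− males, 9334 ± 1689 in PE+/− females and 7236 ± 3552 in PE−/− females (SD, n = 4, 4, 4 and 3). In PE+/− males the order below it was Fshb at 1691 ± 355, Lhb at 627 ± 177 and Tshb at 419 ± 226 CPM per kilobase. Fshb lay above Lhb in each of these libraries, whereas the ranges of Lhb (457 to 851) and Tshb (111 to 615) overlapped. In PE−/− males Tshb came next to Cga at 323 ± 191 CPM per kilobase, above Fshb at 45.3 ± 30.6 and Lhb at 19.2 ± 9.81, and without replicate 4 they stood at 407 ± 111, 58.5 ± 18.8 and 24.1 ± 1.48 (n = 3).

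In PE+/− females the 3 β subunit genes were closer, with Fshb at 407 ± 462, Tshb at 366 ± 131 and Lhb at 302 ± 45.4 CPM per kilobase, and their ranges overlapped. The lead of Fshb rested on replicate 4, and without it Fshb stood at 178 ± 66.2, below Lhb at 319 ± 38.3 and Tshb at 352 ± 156 CPM per kilobase (SD, n = 3), and below both in each of these 3 libraries. In PE−/− females Tshb stood at 457 ± 37.3 CPM per kilobase, above Fshb at 40.2 ± 13.4 and Lhb at 23.8 ± 9.16. The ranges of Fshb (25.2 to 51.1) and Lhb (16.8 to 34.2) overlapped.

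Each ratio was then taken within a library, which cancels what scales all genes of the library alike. Lhb stood at 4.52%, 3.56%, 9.33% and 5.01% of Cga per length in PE+/− males 1 to 4 and at 0.240%, 0.259%, 0.264% and 0.236% in PE−/− males 1 to 4. The PE−/− males differed by little in this ratio, although replicate 4 held far less of both transcripts. In females it stood at 3.40%, 3.10%, 3.86% and 2.75% in controls and at 0.522%, 0.344% and 0.240% in PE−/− mice.

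Fshb stood at 10.4% to 27.9% of Cga in PE+/− males and at 0.291% to 0.862% in PE−/− males. In females it stood at 2.60%, 1.77%, 1.31% and 11.9% in controls, the last being replicate 4, and at 0.784%, 0.514% and 0.517% in PE−/− mice. Tshb stood at 2.97%, 0.866%, 8.43% and 3.77% of Cga in PE+/− males and at 2.99% to 4.99% in PE−/− males, so these overlapped. In females Tshb ran from 3.15% to 4.53% of Cga in controls and from 4.54% to 13.1% in PE−/− mice, with nearly touching ranges.

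**Figure D3:**
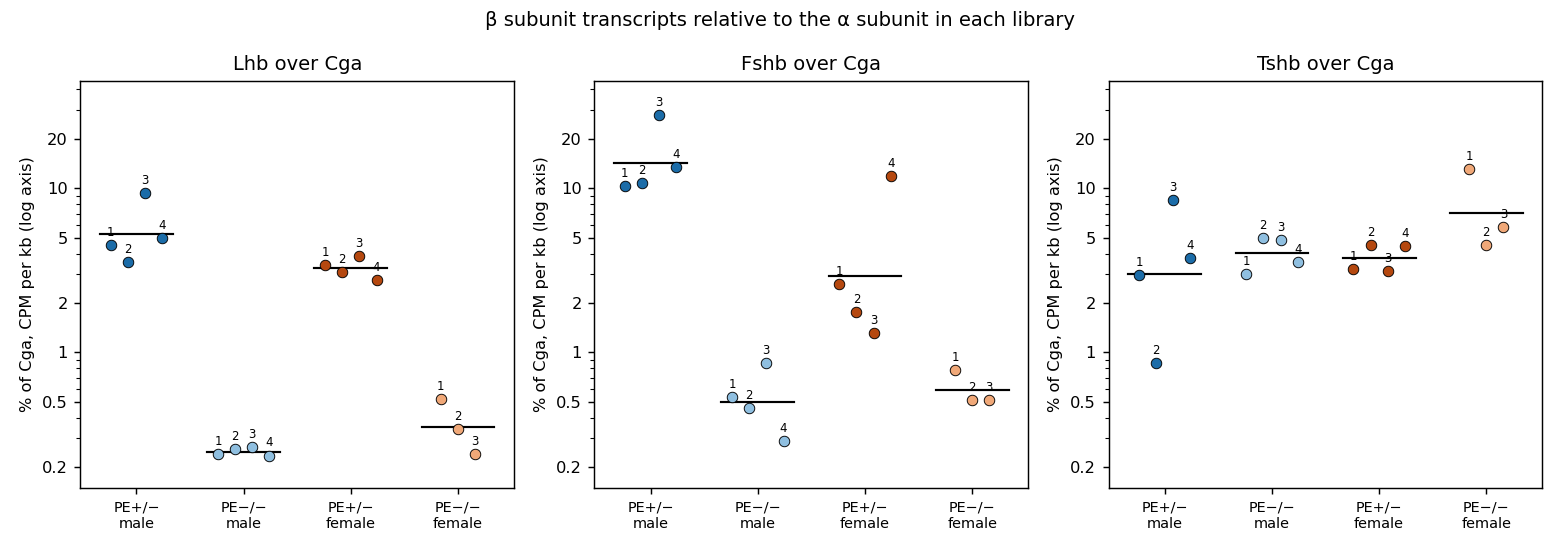
Lhb, Fshb and Tshb as percent of Cga per length in each library (log axis); numbers are replicates and bars are geometric means. PE−/− males lie at 0.236% to 0.264% for Lhb, below controls of 3.56% to 9.33%, whereas Tshb over Cga overlaps in males.

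The genotype effect on 6 ratios was tested by an exact two-sided permutation test that exchanged libraries between genotypes within each sex. This exact test had 2450 arrangements and a smallest p of 0.00082, with adjustment over the 6. The 6 ratios are built from the same 4 genes and are not independent of each other. The log2 ratio of Lhb to Cga differed by −3.80, that of Fshb to Cga by −3.57, that of Lhb to Tshb by −4.46 and that of Fshb to Tshb by −4.22, each at the smallest p of this exact test (adjusted p = 0.0012). Tshb to Cga differed by 0.66 (exact adjusted p = 0.178) and Lhb to Fshb by −0.24 (exact adjusted p = 0.669). In males alone the 4 ratios of a gonadotropin β subunit to Cga or Tshb reached the smallest exact p of 0.0286 (adjusted 0.0429), with Lhb to Cga 21.0-fold and Fshb to Cga 28.6-fold lower. In females alone an exact test cannot go below 0.0571, which these 4 ratios and Tshb to Cga reached (adjusted 0.0686). Lhb to Cga was 9.27-fold and Fshb to Cga 4.91-fold lower, and Tshb to Cga was 1.86-fold higher. Without PE+/− female replicate 4, Fshb to Cga was 3.07-fold and Lhb to Cga 9.80-fold lower in females, and without PE−/− female replicate 1 Tshb to Cga was 1.36-fold higher. In males without PE−/− male replicate 4, Lhb to Cga was 20.6-fold and Fshb to Cga 23.9-fold lower. Tshb to Cga in males differed by 0.42 on the log2 scale with all libraries and by −0.18 without PE+/− male replicate 2, with overlap in both cases.

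The ratio of Lhb to Fshb moved in opposite directions, by 0.45 in males (exact p = 0.229) and by −0.92 in females (exact p = 0.457) on the log2 scale, and the groups overlapped in both sexes. The overlap in females came from PE+/− female replicate 4, and without it the difference was −1.68, with 131% to 295% in controls and 46.5% to 66.9% in PE−/− mice (exact p = 0.1, the smallest that 3 against 3 allow). Without PE−/− male replicate 4 the difference in males was 0.21. In PE+/− females it was spread widely, from 23.1% in replicate 4 to 295% in replicate 3, and in PE+/− males it ran from 33.2% to 43.5%. Between the sexes, with genotypes kept apart, the log2 ratio of Fshb to Tshb was 1.59 lower in females (exact p = 0.0098, adjusted over 6 ratios 0.0588) and that of Lhb to Tshb was 0.67 lower (exact p = 0.0278, adjusted 0.0833). None of the 6 passed the adjusted threshold, but 2 passed without PE+/− female replicate 4 or PE−/− female replicate 2 and 1 without PE−/− male replicate 4.

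The make-up of the β subunit transcripts followed from these levels. Tshb made up 16.6%, 5.71%, 18.5% and 17.0% of the summed CPM per kilobase of Lhb, Fshb and Tshb in PE+/− males 1 to 4 and 79.4%, 87.4%, 81.2% and 87.2% in PE−/− males 1 to 4. In females its share was 35.0%, 48.2%, 37.9% and 23.2% in controls and 91.0%, 84.1% and 88.5% in PE−/− mice. All 7 PE−/− libraries thus had Tshb as the leading β transcript, at 79.4% or more, against at most 48.2% in the 8 controls. The share of Fshb went from 62.6 ± 5.60% to 10.95 ± 3.93% in males (SD, n = 4 each) and from 31.3 ± 21.4% (n = 4) to 7.61 ± 2.06% (n = 3) in females, and that of Lhb from 22.9 ± 2.02% to 5.26 ± 0.94% in males and from 32.6 ± 13.4% to 4.55 ± 1.58% in females. In PE+/− females the Fshb share was 62.4% in replicate 4 and 15.8% to 28.2% in the others.

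The α subunit was in excess over the sum of the β subunits in every library. Cga over this sum was 2.19 to 6.60 in PE+/− males and 16.7 to 26.5 in PE−/− males, without overlap. In females it was 5.23 to 12.03 in controls and 6.92, 18.5 and 15.2 in PE−/− mice 1 to 3, with overlap. The summed β transcripts stood at 2737 ± 723 against 387 ± 226 CPM per kilobase in males and at 1076 ± 492 against 521 ± 50.3 in females, which was not tested.

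**Figure D4:**
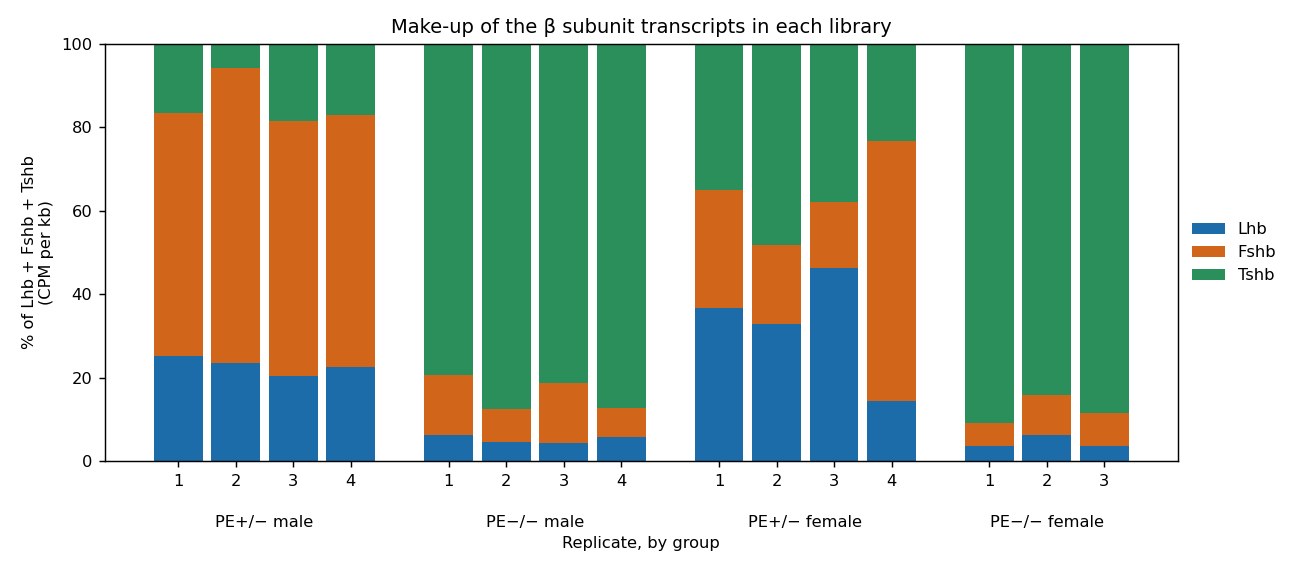
Shares of Lhb, Fshb and Tshb in their summed CPM per kilobase (percent, bars from 0 to 100) in each library. Tshb takes 79.4% to 91.0% in the 7 PE−/− libraries and 5.71% to 48.2% in the 8 controls.

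In 1 library all 4 genes were low together. PE−/− male replicate 4 held 4.86-fold less Lhb, 7.92-fold less Fshb, 4.74-fold less Cga and 4.00-fold less Tshb than the lowest other PE−/− male, so 4 of 4 members were at least 3-fold below, against 5.95% of 19286 genes. This library was picked out after its values were seen. Gnrhr, the GnRH receptor, was 2.81-fold below the others. The other listed gonadotrope markers did not all follow. Foxl2 was 1.65-fold below, and Tgfbr3l at 3.30 CPM lay within the 2.63 to 3.91 CPM of the others. Nr5a1 at 0.740 CPM lay above their 0 to 0.345 CPM, all of these low levels. Trhr, the TRH receptor, and Dio2, a deiodinase of thyrotropes, were 1.13-fold and 1.33-fold below, so that of 3 thyrotrope markers only Tshb stood far below. Over the whole thyrotrope list the summed level ran from 169.7 to 485 CPM in PE−/− males and from 232 to 618 CPM in PE+/− males. Gh (126300 CPM) and Pomc (71552 CPM) lay within the range of the other PE−/− males, and Prl at 41223 CPM lay above their 4753 to 16602 CPM. Egr1, an immediate early factor, stood at 612 CPM against 57.9 to 354 CPM in the others, and Fos, another immediate early gene, at 781 CPM against 14.5 to 294 CPM. Jun, also an immediate early gene, was close to the others, at 73.6 CPM against 62.6 to 68.3 CPM. The part of these other cell types in the low values was not tested.

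Each other low or high library concerned fewer members. PE+/− female replicate 4 was 2.03 above its group mean in log2 CPM for Fshb but within 0.25 of it for the other 3 genes. PE+/− male replicate 2 was 1.66 below for Tshb and within 0.42 for the others. PE−/− female replicate 1 was lower by 1.01 for Cga, 0.61 for Fshb and 0.44 for Lhb, and by 0.11 for Tshb.

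**Figure D5:**
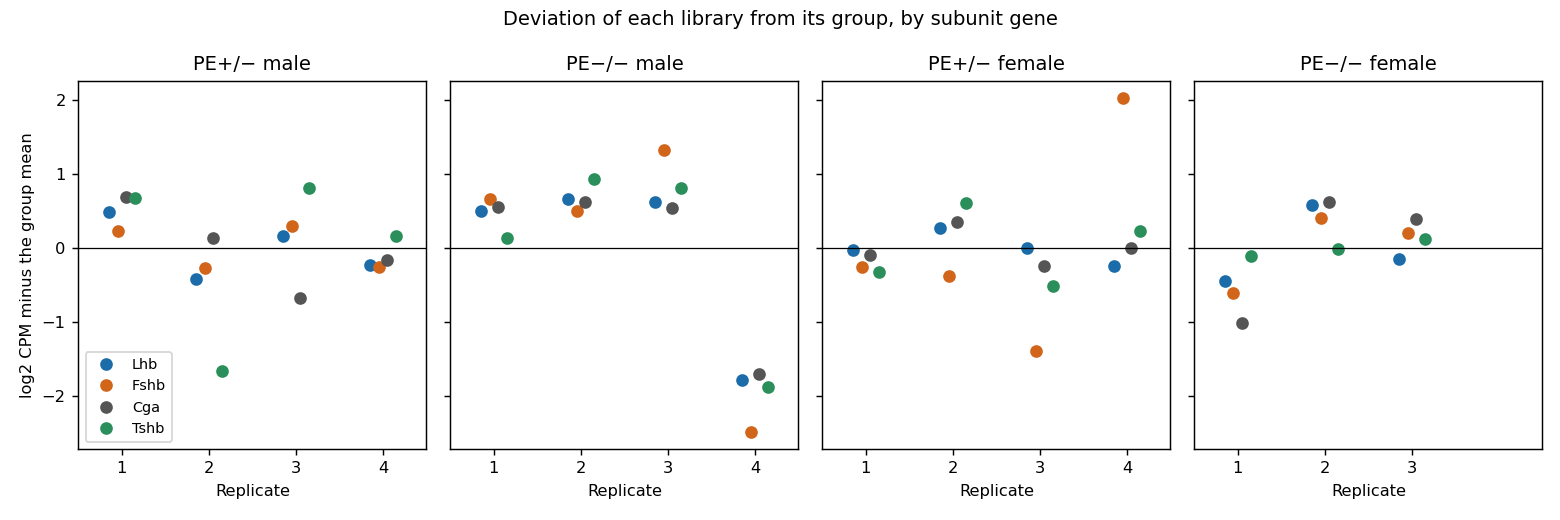
Log2 CPM of each subunit gene minus its group mean, by replicate, in the 4 groups. In PE−/− male replicate 4 all genes lie between −2.49 and −1.71, whereas PE+/− female replicate 4 stands out for Fshb (2.03) and PE+/− male replicate 2 for Tshb (−1.66).

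After the group means were taken out, 6 pairs of genes were correlated over the 15 libraries by an exact permutation test within groups (82944 arrangements), with adjustment over the 6. Pearson's r was 0.85 for Lhb with Cga (exact p = 0.0188, adjusted 0.0458; Spearman's rho 0.76, exact p = 0.0137), 0.79 for Lhb with Tshb (exact p = 0.0049, adjusted 0.0292; rho 0.66, exact p = 0.0126), 0.66 for Fshb with Cga (exact p = 0.0326, adjusted 0.0488; rho 0.61, exact p = 0.0308) and 0.66 for Fshb with Tshb (exact p = 0.0229, adjusted 0.0458; rho 0.68, exact p = 0.0133). It was 0.66 for Lhb with Fshb (exact p = 0.0949; rho 0.60, exact p = 0.0748) and 0.55 for Cga with Tshb (exact p = 0.110; rho 0.45, exact p = 0.128), neither past the adjusted threshold. These relations rested on few libraries, and leaving out 1 library at a time left 0 to 5 of the 6 pairs past the threshold (0 when the library left out was replicate 4 of the PE+/− males or replicate 1 or 4 of the PE−/− males, and 1 for each of 8 other libraries). Without the 2 libraries farthest from the median of the first gene, always including PE−/− male replicate 4, r was 0.58 for Lhb with Cga, 0.53 for Lhb with Tshb, 0.48 for Fshb with Cga, 0.43 for Fshb with Tshb, 0.09 for Lhb with Fshb and 0.01 for Cga with Tshb, and none of the 6 passed (exact adjusted p from 0.301 to 0.980). Cga with Tshb gave r = 0.01 over the 8 controls (exact p = 0.977, rho 0.07). Over the 7 PE−/− libraries r was 0.84 (exact p = 0.0486) and rho was 0.61 (exact p = 0.132). These 7 include PE−/− male replicate 4, at −1.71 for Cga and −1.87 for Tshb from its group mean in log2 CPM. The value of r over the PE−/− libraries without it is not given here. The difference between controls and PE−/− libraries was not tested.

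The genes most like each member were found by the root mean square difference of log2 CPM profiles, each centred over the 15 libraries, among genes whose spread was at least 0.5 times that of the member. Nearest to Lhb were Gnrhr (difference 0.35), Fshb (0.98) and Fscn2 (1.01) among 3324 genes, and nearest to Fshb were Lhb (0.98), Gnrhr (1.07) and Il23a (1.11) among 2669. Gnrhr followed Lhb at 148 ± 37.4, 5.48 ± 2.67, 95.8 ± 13.2 and 6.87 ± 2.44 CPM in PE+/− males, PE−/− males, PE+/− females and PE−/− females (SD, n = 4, 4, 4 and 3). Nearest to Cga were Unc50 (0.44), Ttc24 (0.46) and Hist1h1b (0.47) among 11692, and nearest to Tshb were Senp2 (0.38), Cdon (0.51) and Myo6 (0.52) among 10534. Hist1h1b had group means of only 0.643 to 0.727 CPM, so its profile rested on few counts. Cga and Tshb were not among the 3 nearest genes of each other. For Lhb and Fshb (SD 2.45 and 2.64 in log2 CPM) they could not be listed. Their own spread (SD 0.784 and 0.884) was too small for them to be candidates there.

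Around the 4 members, 5 lists of pathway genes were counted. Beside their counts of unadjusted p under 0.05 stand the shares of all genes tested, which were 6.135% in males, 16.1% in females, 13.5% between the sexes in controls, 3.37% between the sexes in PE−/− mice and 10.1% in the interaction. Of the 2 other glycoprotein hormone subunits, Gphb5 had 0 counts in all libraries and Gpha2, an α subunit relative, stayed near 1 CPM (mean 0.75 to 1.21 in the groups) and passed in no comparison. Of the 5 genes that add glycans or sulfate to the subunits, none passed with edgeR or with DESeq2 in any comparison. An unadjusted p under 0.05 was reached by 0 of 5 in males, by B4galnt3 alone in females, between the sexes in controls and in the interaction, and by 0 between the sexes in PE−/− mice. The smallest p went to St6gal1, a sialyltransferase, in males (139 to 109 CPM, log2 fold change −0.36) and to B4galnt3, an N-acetylgalactosamine transferase, in females (2.25 to 5.29 CPM, 1.22, edgeR adjusted p = 0.249) and between the sexes in controls (−1.76, edgeR adjusted p = 0.217). It went to B4galnt4 between the sexes in PE−/− mice (0.22) and to B4galnt3 in the interaction (1.65, edgeR adjusted p = 0.433).

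Of 12 receptors that act on subunit transcription, Gnrhr passed in males (log2 fold change −4.75, SE 0.45, edgeR adjusted p = 0.0099) and in females (−3.80, SE 0.29, edgeR adjusted p = 0.0063), both lower in PE−/− mice. Tgfbr3l, a coreceptor for inhibin B, fell in females from 133 ± 22.8 to 3.24 ± 0.090 CPM (−5.36, edgeR adjusted p = 0.00025). In males it stood at 107 ± 128 and 3.23 ± 0.53 CPM (−5.05, edgeR adjusted p = 0.0952) and passed with DESeq2. The median log2 fold change of the 12 was −0.23 in males and 0.013 in females. None of the 12 passed with edgeR between the sexes or in the interaction, where Pgr, the progesterone receptor, had the smallest p in controls (1.79, edgeR adjusted p = 0.112) and in the interaction (−1.91, edgeR adjusted p = 0.172). Between genotypes, an unadjusted p under 0.05 was reached by 2 of the 12 in males (6.135% of all genes) and by 4 in females (16.1%). In females these were Gnrhr, Tgfbr3l and Pgr, lower in PE−/− mice, and Tgfbr3, higher in PE−/− mice (96.3 to 144.5 CPM). It was reached by 5 of the 12 between the sexes in controls (13.5% of all genes), by 0 in PE−/− mice (3.37%) and by 2 in the interaction (10.1%). In controls DESeq2 called, among others, Tgfbr3 lower and Pgr higher in females. It also called Pgr in females and in the interaction.

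Of 7 activin and BMP ligands and binding proteins, 6 were tested with edgeR and none passed in any comparison, with an unadjusted p under 0.05 in 1 in males (6.135% of all genes), 1 in females (16.1%), 2 between the sexes in controls (13.5%), 1 in PE−/− mice (3.37%) and 2 in the interaction (10.1%). Grem1, a BMP antagonist, stood at 25.99 ± 10.1 CPM in PE+/− males against 1.45 ± 1.02 in PE−/− males, 1.22 ± 0.87 in PE+/− females and 1.44 ± 0.22 in PE−/− females. Its edgeR adjusted p was 0.0605 in males (−4.16), 0.0503 between the sexes in controls (−4.37) and 0.118 in the interaction (4.34), and DESeq2 called it in all 3. Bmp4 had the smallest p in females (0.89, edgeR adjusted p = 0.248) and Inha, the α subunit of inhibin, between the sexes in PE−/− mice (−0.92, edgeR adjusted p = 0.997). DESeq2 also called Inhba, a β subunit of activin, between the sexes in controls (−1.63, DESeq2 adjusted p = 0.00205).

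Of 21 transcription factors of the subunit genes, Nr5a1 and Nr0b1, which encodes the repressor DAX-1, passed in males (edgeR adjusted p = 0.0117 and 0.0203) and in females (0.00025 and 0.0298 of 20 tested), both lower in PE−/− mice. Nr0b1 stood at 20.8 ± 3.56 CPM in PE+/− males and 0.179 ± 0.266 in PE−/− males, and at 17.6 ± 4.63 in PE+/− females and 0.341 ± 0.376 in PE−/− females. The other 19 and 18 tested did not pass, and the median log2 fold change of the list was −0.049 in males and 0.27 in females. An unadjusted edgeR p under 0.05 was reached by 4 of 21 in males (6.135% of all genes), with Lhx4 and Msx1 beside Nr5a1 and Nr0b1. Lhx4 was lower in PE−/− males (2.03 to 0.277 CPM) and Msx1 was higher (289 to 417 CPM). In females 6 of 20 reached an unadjusted edgeR p under 0.05 (16.1% of all genes), with Lhx3, Isl1, Neurod4 and Msx1 beside Nr5a1 and Nr0b1. Of these, Lhx3 (241 to 292 CPM), Isl1 (23.6 to 35.6 CPM) and Msx1 (267 to 449 CPM) were higher in PE−/− females. Neurod4 was lower (418 to 198 CPM). None passed between the sexes or in the interaction with edgeR or DESeq2, and an unadjusted edgeR p under 0.05 was reached by 2 in controls, 1 in PE−/− mice and 1 in the interaction. There Neurod4 in controls (1.196, edgeR adjusted p = 0.222) and Foxl2 in PE−/− mice (0.82, edgeR adjusted p = 0.997) and in the interaction (1.17, edgeR adjusted p = 0.449) had the smallest edgeR p.

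The glands carried the markers of the anterior lobe cell types, while those of the posterior lobe summed to 7.57 CPM or less in every library, with Nkx2-1 at 0 in all 3 PE−/− females. Of 6 gonadotrope markers, which include Lhb, Fshb and Nr5a1, 3 were called lower with edgeR in PE−/− males, where 0.132% of all genes were called. In PE−/− females 4 were called lower, where 1.05% of all genes were called. Lhb and Nr5a1, given above, are among the called in both sexes. Foxl2, also among the 6, was called in neither sex. Its mean went up in PE−/− females, from 4.32 to 6.72 CPM. In PE−/− males it went down, from 5.49 to 3.78 CPM. The Foxl2 ranges of the genotypes overlapped in each sex. The summed level of the 6 ran from 2721 to 4270.4 CPM in PE+/− males, 20.1 to 158 in PE−/− males, 621 to 2208 in PE+/− females and 68.5 to 125 in PE−/− females, and none was at 0 in every library of a group. Of 3 thyrotrope markers (Tshb, Trhr, Dio2) none was called with edgeR or DESeq2 in either sex, and their sum ran from 308 to 488 CPM in PE+/− females and from 444 to 473 CPM in PE−/− females. With edgeR, no listed marker of somatotropes, corticotropes, melanotropes, stem or folliculostellate cells, the posterior lobe, endothelium, immune cells or blood was called in either sex between genotypes. Among them, Gh in males had an unadjusted edgeR p under 0.05, as had 6.135% of all genes (162435 to 106840 CPM). In females Ghrhr and Aldh1a2, higher in PE−/− mice, and Hbb-bs, lower, had one, against 16.1% of genes. Gh in females went from 78642 to 121731 CPM without reaching it. Of the posterior lobe markers 1 of 2 was tested in males and neither in females, and DESeq2 called the stem cell marker Aldh1a2 higher in PE−/− females.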

How the data were processed

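Whole pituitary RNA of 15 samples in 4 groups was sequenced as paired reads, 1 library each. The study's methods and the submitters' processing notes name cutadapt for trimming, STAR for mapping to mm10 and featureCounts for counting. The authors deposited estimated counts as whole numbers, not normalized. Their row names are those of a transcript assembly, which the methods do not mention, so that 1 count may not be 1 fragment. The methods name no molecular identifiers. The members and lists were chosen with earlier results of these data known.

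Values were tested in R 4.3.3 with edgeR 4.0.16 (filterByExpr with a minimum count of 10 and a minimum total count of 15, TMM, quasi-likelihood F test, two-sided, on the libraries of the groups compared, or all 15 for the interaction), with Benjamini-Hochberg adjustment over all genes tested and a threshold of 0.05. The standard error is the log2 fold change divided by the square root of F, and 95% intervals use the same standard error. Replicates had 12982794 to 30238443 counts, and intervals cover the spread between libraries. Ratios used TMM-scaled CPM per kilobase of the APPRIS principal transcript of GENCODE M21 and were compared by exact permutation in Python 3.11.15, adjusted over 6 ratios. Named genes were the 4 members, list genes that passed or had the smallest p in their list, the 3 genes nearest to each member, and leading markers. Upstream sequences came from RefSeq, where all 4 members matched. The fits and tests were checked on simulated data. DESeq2 1.42.0, the edgeR likelihood ratio test, other scaling, no filter, counts divided by 4, a replicate block, 1 fit on all libraries and leaving out each library were the alternatives. 0 columns were left unmatched. Isolated gonadotropes were not analysed here. The values of 1 listed gene are not reported here.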

Additional observations from a re-analysis of the deposited data

Results flagged for a closer look

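In the groups of 4 samples, 30 sets of values (CPM of each member and each log2 ratio) were checked by Dixon's test for a sample far from the others. Chance alone gives such a sample in about 1 in 20 sets. There were 4. In PE−/− males, replicate 4 was low for Lhb (3.13 CPM) and for Cga (1346 CPM). In PE+/− females, replicate 4 was high for Fshb (1754 CPM). In PE+/− males, replicate 2 was high in the log2 ratio of Fshb to Tshb (3.63), where its Tshb was 67.1 CPM.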

How the results depend on the processing

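The alternatives moved single calls but turned no called direction. Counts of the 4 members called went in males from 1 to 2 with DESeq2, the edgeR likelihood ratio test, no low-count filter, counts divided by 4 or 1 fit on all 15 libraries, and in females from 1 to 2 with DESeq2 and the likelihood ratio test. Between the sexes in controls they went from 0 to 2 with DESeq2 and to 1 with the likelihood ratio test. The labels do not say whether equal replicate numbers mark paired samples. Correlations of deviations between equal numbers ran from −0.081 to 0.13, which cannot settle it, and replicate 2 had the largest library total in each group. With the replicate numbers as a replicate block, 0 members were called in males and 0 in females. Lhb then stood at −5.22 and −3.81 on the log2 scale (edgeR adjusted p = 0.179 and 0.186). Leaving out 1 library at a time gave 0 to 2 called members in males, 1 in every case in females, 0 to 1 between the sexes in controls and 0 in the other 2 comparisons, 4 to 5 ratios that differed by genotype, 0 to 2 that differed by sex and 0 to 5 correlated pairs. Without the 2 farthest libraries 0 pairs passed. Over the pathway lists of 2, 5, 12, 7 and 21 genes, DESeq2 called 5 genes in males (0.976% of all genes). There edgeR called 3 (0.132%). Between the sexes in controls DESeq2 called 5 (4.00%), where edgeR called 0 (0.670%). In the interaction DESeq2 called 2 (1.78%), where edgeR called 0 (0.161%). In females DESeq2 added Pgr to the genes called with edgeR, and it called 6.05% of all genes against 1.05%.

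No called value reversed. Beside Tshb to Cga in males, given above, some values between the sexes reversed. In PE−/− mice Lhb went from 0.31 to −0.079 with the replicate block, to −0.046 without PE−/− female replicate 2 (highest 0.51 with 1 library left out) and to −0.014 without PE−/− male replicate 4. Fshb (lowest −0.54) went from −0.17 to 0.076 without PE−/− female replicate 1 and to 0.25 without PE−/− male replicate 3. Cga (lowest −0.39) went from −0.07 to 0.29 without PE−/− female replicate 1 and to 0.045, 0.075 and 0.041 without PE−/− male replicate 1, 2 or 3. Tshb in controls (lowest −0.52) went from −0.20 to 0.042 without PE+/− male replicate 3. The log2 ratio of Lhb to Cga between the sexes (lowest −0.24) went from −0.098 to 0.038 without PE−/− female replicate 3 and to 0.041 without PE+/− male replicate 3. Among single values with 1 library left out, 387 kept their call and direction, 41 lost the threshold and 11 gained it. The causes were not tested. The lowest count behind a value of a member was 55 estimated counts, for Lhb in PE−/− male replicate 4.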
